A study of Mus musculus with 7 samples.

Results

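The CXC chemokines and the CX3C ligand Cx3cl1 were followed in mature adipocytes of mice that lack FFA2 in adiponectin-expressing cells. Their members were chosen by gene symbol, and the 10 ligands Cxcl1, Cxcl2, Cxcl5, Cxcl9, Cxcl10, Cxcl12, Cxcl13, Cxcl14, Cxcl16 and Cx3cl1 are 10 of the 57010 genes in the deposited count table. Adipocytes were isolated with collagenase from the perigonadal fat of male mice that the labels give as 20 weeks old and fed standard chow, and poly-A RNA was sequenced as paired-end reads. The control group held 3 libraries from FFA2 fl/fl mice, which carry the floxed Ffar2 alleles without Cre, and the knockout group held 4 libraries from Adipoq-F2-KO mice, floxed littermates that also carry Cre under the adiponectin promoter. Both groups therefore carry the floxed alleles, Cre was present in the knockout mice only, and effects of Cre and of the deletion cannot be told apart. FFA2, encoded by Ffar2, is a G protein-coupled receptor for short-chain fatty acids.

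Chemokines are small secreted proteins that direct the migration of leukocytes through G protein-coupled receptors. In CXC ligands a single residue lies between the first pair of conserved cysteines, and in CX3CL1 3 residues lie between them. CXC ligands that carry glutamate, leucine and arginine just before the first cysteine attract neutrophils through CXCR2, whereas CXCL9 and CXCL10 lack that motif, are induced by interferons and attract activated T cells through CXCR3. CXCL12 and CXCL14 are made constitutively in many tissues, and CXCL13 is grouped with them here as homeostatic. CXCL16 and CX3CL1 are held on a membrane-spanning stalk from which metalloproteases can release them. In adipose tissue such ligands come from adipocytes as well as from macrophages, endothelial cells and stromal cells.

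The stretch around the first cysteine pair is shown because it sets the neutrophil-attracting class and sets Cx3cl1 apart from the CXC ligands. The interferon-induced, homeostatic and membrane-bound classes were fixed by gene symbol and are not told apart by this stretch. The lines below give the coding strand of each GENCODE M21 transcript, 5′ to 3′, with the cysteine codons in capitals and, where the 3 codons before the first cysteine encode glutamate, leucine and arginine, those codons in capitals as well.
Cxcl1: atcgccaatGAGCTGCGCTGTcagTGC
Cxcl2: gtggccagtGAACTGCGCTGTcaaTGC
Cxcl5: gccgcaacgGAGCTGCGTTGTgttTGC
Cxcl9: gtgataaggaatgcacgaTGCtccTGC
Cxcl10: ctcgcaaggacggtccgcTGCaacTGC
Cxcl12: gtcagcctgagctaccgaTGCcccTGC
Cxcl13: cattacacaaacttaaaaTGTaggTGT
Cxcl14: cgcgtggacgggtccaagTGTaagTGT
Cxcl16: ggcagtgtcgctggaagtTGTtctTGT
Cx3cl1: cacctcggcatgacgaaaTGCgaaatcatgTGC
Cxcl1, Cxcl2 and Cxcl5 carried the motif and the other ligands did not. The cysteine codons were separated by a single codon in the 9 CXC ligands and by 3 codons in Cx3cl1.

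Promoters were searched, on both strands, for GGG and TTCC with any 3 bases between them, the letters of an NF-kB site, and for GAAA and GAAA with any 2 bases between them, the letters of an interferon-stimulated response element. RefSeq promoters, on GRCm38.p6 from 250 bases before to 50 bases after the annotated start, were at hand for 8 of the 10 ligands, those of Cxcl5 and Cxcl16 not being used here. The first motif was present in 5.56% of all 32851 promoters and in those of Cxcl1, Cxcl2 and Cxcl10, and the second was present in 3.44% and in those of Cxcl10 and Cxcl14. The windows of the 3 ligands with the first motif follow, in the direction of transcription and with every match to either motif in capitals. Adjoining capitals are a match on each strand that overlap.
Cxcl1, chr5:90891136-90891204, plus strand: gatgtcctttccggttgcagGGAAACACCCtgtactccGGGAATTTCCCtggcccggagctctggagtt
Cxcl2, chr5:90903782-90903850, plus strand: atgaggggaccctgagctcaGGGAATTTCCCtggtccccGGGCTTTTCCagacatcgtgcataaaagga
Cxcl10, chr5:92348964-92349122, minus strand: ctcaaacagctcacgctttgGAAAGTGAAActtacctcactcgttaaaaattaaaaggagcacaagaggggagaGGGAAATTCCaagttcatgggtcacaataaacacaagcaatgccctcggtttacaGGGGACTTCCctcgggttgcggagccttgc
Cxcl1 and Cxcl2 each held an 11-base block of overlapping matches on opposite strands, and Cxcl10 held the interferon motif upstream of its NF-kB letters. These matches describe the letters of the promoters and were not measured as binding.

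Of the ligands 6 lie on chromosome 5, Cxcl5, Cxcl1 and Cxcl2 in that order, followed by Cxcl9, Cxcl10 and Cxcl13. Gene positions below are those of the deposited table, whose coordinates match those of GRCm38 for only 2.88% of gene identifiers, so they belong to another build and are not to be mixed with the promoter positions above.

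The libraries held between 30478997 and 39992605 counts. The targeted gene was depleted, since Ffar2 counts were 1404, 1346 and 1094 in the controls and 67, 38, 48 and 76 in the knockouts. Its log2 fold change was -4.36 (SE 0.22, adjusted p = 8.0e-06 by the edgeR quasi-likelihood test), and its sister receptor gene Ffar3 had 0 counts in all 7 libraries. The adipocyte genes Cfd and Fabp4 averaged 13847 and 11626 CPM (counts scaled to a common library size) in the controls. Mitochondrial genes took 4.41% to 5.77% of counts in the controls and 6.61% to 10.3% in the knockouts, and their part in the results below was not tested.

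Levels were compared between ligands per kilobase of exon, and fold changes within a ligand in CPM scaled by trimmed mean of M values. Cxcl1 was the most abundant ligand, at 486 ± 106 CPM per kilobase in FFA2 fl/fl (SD, n = 3) and 632 ± 116 in Adipoq-F2-KO (SD, n = 4). Cxcl10, Cxcl9 and Cxcl2 followed with control means of 93.0, 59.9 and 46.1 CPM per kilobase and knockout means of 145, 99.4 and 82.3. Cxcl12 lay at 13.6 and 19.4 CPM per kilobase. Cxcl16, Cx3cl1, Cxcl14, Cxcl13 and Cxcl5 were low, with control means of 2.17, 1.41, 1.01, 0.636 and 0.164 CPM per kilobase. The order was the same in both genotypes. Cxcl10 and Cxcl9, Cxcl9 and Cxcl2, Cx3cl1 and Cxcl14, and Cxcl14 and Cxcl13 overlapped between libraries within each genotype, so these neighbours were not separated, and Cxcl13 and Cxcl5 overlapped in the controls. When the length of the coding transcript was used in place of the exon length of the table, Cxcl2 moved to rank 3 and Cxcl9 to rank 4.

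**Figure D1:**
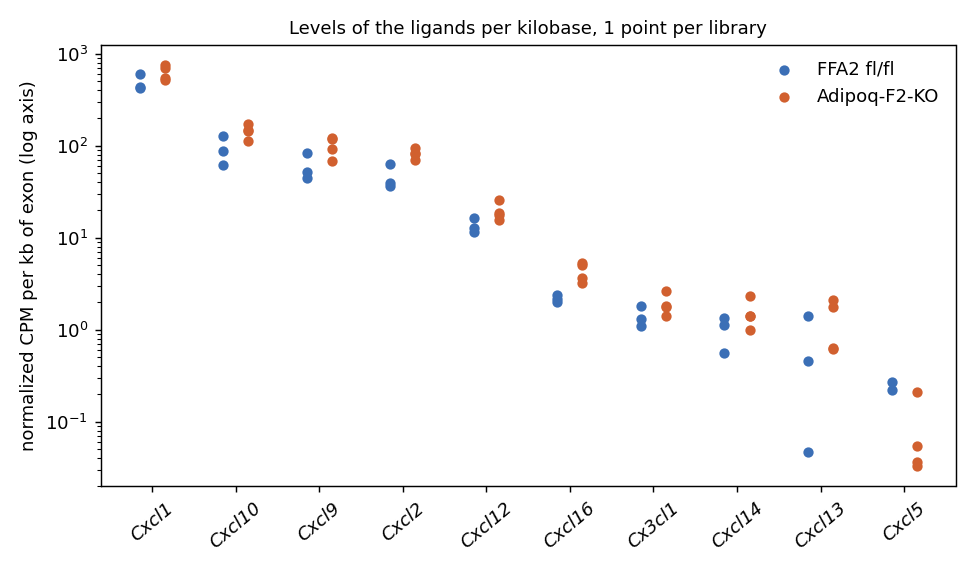
Level of each ligand in CPM per kilobase of exon on a log axis, with a point for each of the 3 FFA2 fl/fl and 4 Adipoq-F2-KO libraries. Cxcl1 lies above every other ligand in every library, and the Cxcl5 value of 0 in FFA2 fl/fl library 1 cannot be drawn on this axis.

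All 10 ligands passed the filter on low counts, and 9 of the 10 had a positive log2 fold change, against 50.4% of the 17039 genes tested. Cxcl16 rose in Adipoq-F2-KO at an adjusted p under 0.05, as 1 of 10 ligands called, where 1.02% of all genes tested were called and 0.798% were called higher. At an unadjusted p under 0.05 the ligands higher in the knockout were 6 of 10, against 10.5% of all genes tested. The median log2 fold change of the ligands was 0.62, against 0.00 over all genes tested. In 2 of the 10 ligands, Cxcl2 and Cxcl16, every knockout library lay above every control library, and 8.86% of all genes tested had that pattern. The number of ligands called depended on the test. DESeq2 called 4 of the 10, all higher (Cxcl2, Cxcl10, Cxcl12 and Cxcl16), where it called 5.82% of all genes tested and 4.34% higher, and limma voom called 1 of the 10 (Cxcl2), where it called 1.22%. With a filter of at least 1 count, edgeR called 5 of the 10 (those called by DESeq2 and Cxcl9), where it called 4.92% of genes. In these bulk samples, more cells of a type and more RNA per cell cannot be told apart.

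**Figure D2:**
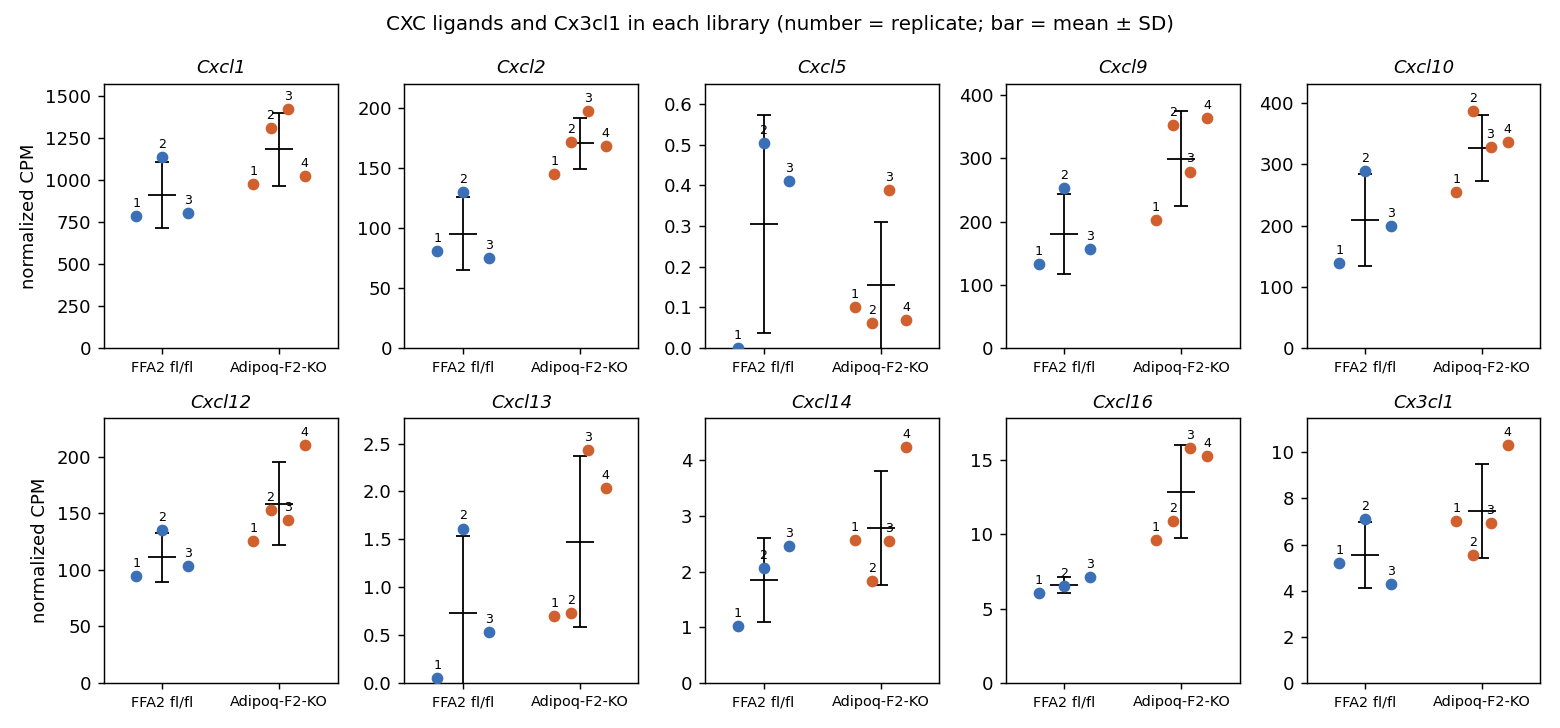
Normalized CPM of each of the 10 ligands, with a panel per ligand and its own axis from 0, a point per library numbered by replicate, and the mean with its SD for FFA2 fl/fl (n = 3) and Adipoq-F2-KO (n = 4). The 2 groups do not overlap for Cxcl2 and Cxcl16, and the SD bars of Cxcl5 and Cxcl13 are cut at 0.

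Among the neutrophil-attracting ligands, Cxcl1 and Cxcl2 were abundant and higher on average in Adipoq-F2-KO, with the larger log2 fold change in Cxcl2, whereas Cxcl5 was near the limit of detection. No member of the class passed the threshold with edgeR. Cxcl2 (ENSMUSG00000058427, chr5:91051730-91053797), a ligand of CXCR2 made early in inflammation, was measured at 80.6, 130 and 75.0 CPM in FFA2 fl/fl libraries 1 to 3 and at 145, 171, 197 and 168 CPM in Adipoq-F2-KO libraries 1 to 4. The groups did not overlap, and control library 2 stood closest to the knockout libraries. The mean was 95.3 ± 30.4 CPM in the controls and 170 ± 21.3 CPM in the knockouts, with a log2 fold change of 0.84 (SE 0.18) and an adjusted p of 0.0542, just above the threshold of 0.05. Permuting the group labels gave a two-sided exact p of 0.0286, the smallest this design allows. Cxcl2 passed the threshold with the DESeq2 test (adjusted p = 0.0003) and with limma voom (adjusted p = 0.0359). It also passed without control library 2, where its log2 fold change was 1.13 and its edgeR adjusted p 0.0240. That library was the highest control, and leaving it out raises the fold change by construction. In the other 6 fits that left out 1 library Cxcl2 did not pass. Its edgeR adjusted p-values were 0.263 and 0.214 without control libraries 1 and 3 and 0.0562, 0.0925, 0.0854 and 0.0659 without knockout libraries 1 to 4. Over all genes tested, edgeR called 1, 41 and 5 without control libraries 1 to 3. It called 178, 11, 20 and 166 without knockout libraries 1 to 4, so few genes could pass in some of these fits.

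Cxcl1 (ENSMUSG00000029380, chr5:91039100-91040974), the keratinocyte-derived neutrophil attractant and a neighbour of Cxcl2, was measured at 788, 1140 and 806 CPM in the controls and at 975, 1312, 1423 and 1026 CPM in the knockouts. Control library 2 lay above knockout libraries 1 and 4. The means were 911 ± 198 and 1184 ± 218 CPM, the log2 fold change was 0.38 (SE 0.17) with an edgeR adjusted p of 0.262, and the exact permutation test gave p = 0.171. Cxcl5 (ENSMUSG00000029371, chr5:90907219-90909483), a further CXCR2 ligand, had 0, 20 and 14 counts in the controls and 4, 2, 14 and 2 counts in the knockouts. Because both mates of a fragment were counted, a floor of 3 fragments is 6 counts, or 0.150 to 0.197 CPM, and 4 of the 7 libraries were under it. The log2 fold change of Cxcl5 was -0.96 (SE 1.16) with an edgeR adjusted p of 0.709, so a difference was not detectable at this depth.

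The ratio of Cxcl1 to Cxcl2 within a library was 9.77, 8.75 and 10.8 in the controls and 6.72, 7.66, 7.22 and 6.12 in the knockouts. Every knockout library lay below every control library, with means of 9.76 ± 0.999 and 6.93 ± 0.662 and an exact permutation p of 0.0286. Among the 28 ratios of 8 ligands taken, 1 other did not overlap, Cxcl12 to Cxcl16, at 17.0 ± 3.39 in the controls and 12.5 ± 2.30 in the knockouts with the same exact permutation p. After adjustment over the 28 ratios both had a permutation p of 0.4. As 0.0286 is the smallest p this design allows, a few ratios at that value could not pass the threshold after adjustment, so no conclusion is drawn from it. Cxcl1 and Cxcl2 share no identical stretch longer than 23 bases in their transcripts, whereas Cxcl2 shares 110 bases with Cxcl3. A read wholly within that stretch matches both Cxcl2 and Cxcl3, and how such reads were placed was not tested.

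Both interferon-induced ligands had higher means in Adipoq-F2-KO, and each overlapped the controls through control library 2. Neither passed the threshold with edgeR. Both were under 0.05 unadjusted, against 10.5% of all genes tested that were so and higher. Cxcl9 (ENSMUSG00000029417, chr5:92469206-92475938), a CXCR3 ligand induced by interferon gamma, was measured at 133, 253 and 157 CPM in the controls and at 203, 353, 279 and 364 CPM in the knockouts. Only knockout library 1 fell below control library 2. The means were 181 ± 63.7 and 300 ± 74.6 CPM, with a log2 fold change of 0.73 (SE 0.23), an edgeR adjusted p of 0.146 and an exact permutation p of 0.114. Cxcl10 (ENSMUSG00000034855, chr5:92494497-92496748), a CXCR3 ligand induced by interferons and by NF-kB, was measured at 140, 289 and 199 CPM in the controls and at 255, 387, 328 and 336 CPM in the knockouts. As with Cxcl9, the overlap came from control library 2 and knockout library 1. The means were 209 ± 75.3 and 327 ± 54.2 CPM, with a log2 fold change of 0.64 (SE 0.21), an edgeR adjusted p of 0.156 and an exact permutation p of 0.0857. With DESeq2 Cxcl10 passed at an adjusted p of 0.0274. Exons of Cxcl10 share 133 bases, 5.91% of its exon length, with Art3 on the opposite strand, and Art3 averaged 365 ± 25.2 CPM in the controls and 325 ± 35.9 CPM in the knockouts. Whether strand was used in counting is not given in the sources used here.

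The homeostatic ligands were led by Cxcl12, and no member of this class passed the threshold with edgeR. Of its 3 members 1 was under 0.05 unadjusted, against 10.5% of all genes tested that were so and higher. Cxcl12 (ENSMUSG00000061353, chr6:117145496-117158328), the stromal ligand of CXCR4 and of the scavenging receptor ACKR3, was measured at 94.8, 135 and 103 CPM in the controls and at 126, 153, 144 and 211 CPM in the knockouts. Knockout library 4 was the highest and knockout library 1 lay below control library 2. The means were 111 ± 21.4 and 158 ± 36.6 CPM, with a log2 fold change of 0.51 (SE 0.17), an edgeR adjusted p of 0.163 and an exact permutation p of 0.114, and DESeq2 gave an adjusted p of 0.0472. Cxcl13 (ENSMUSG00000023078, chr5:96104810-96108927), which attracts B cells through CXCR5, had 2, 64 and 18 counts in the controls and 28, 24, 88 and 60 counts in the knockouts. Library to library differences exceeded the difference between the groups, with means of 0.731 ± 0.799 and 1.48 ± 0.892 CPM, a log2 fold change of 1.00 (SE 0.83) and an edgeR adjusted p of 0.565. Its log2 fold change was 2.34 without control library 2 and 0.45 without control library 1. Cxcl14 (ENSMUSG00000021508, chr13:56436456-56444364), a constitutively made ligand of epithelium and fat, was measured at 1.01, 2.07 and 2.46 CPM in the controls and at 2.56, 1.82, 2.54 and 4.24 CPM in the knockouts, with a log2 fold change of 0.59 (SE 0.39) and an edgeR adjusted p of 0.457.

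Of the membrane-bound ligands, Cxcl16 rose and Cx3cl1 did not pass the test. Cxcl16 (ENSMUSG00000018920, chr11:70344809-70350810), the ligand of CXCR6 and also a scavenger receptor for oxidized lipoprotein, was measured at 6.06, 6.50 and 7.15 CPM in the controls and at 9.61, 10.9, 15.8 and 15.3 CPM in the knockouts. The control libraries lay close together and every knockout library was above them. The means were 6.57 ± 0.546 and 12.9 ± 3.11 CPM, a 1.96-fold difference, with a log2 fold change of 0.97 (SE 0.20), an edgeR adjusted p of 0.0475 and an exact permutation p of 0.0571. Its edgeR adjusted p was 0.0323 without knockout library 1 but above the threshold in each of the other 6 fits that left out 1 library. It was 0.241, 0.103 and 0.155 without control libraries 1, 2 and 3. Without knockout libraries 2, 3 and 4 it was 0.0639, 0.0795 and 0.0645. Over all genes tested, the 7 fits called between 1 and 178. The log2 fold change of Cxcl16 stayed between 0.86 and 1.09 in them. For Cxcl16 the limma voom test gave an adjusted p of 0.0612 and DESeq2 an adjusted p of 0.0007. Exons of Cxcl16 share 552 bases, 18.3% of its exon length, with Zmynd15 on the opposite strand, which averaged 1.44 CPM in the controls and 2.07 CPM in the knockouts.

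Cx3cl1 (ENSMUSG00000031778, chr8:95498637-95509055), or fractalkine, the ligand of CX3CR1 on monocytes and macrophages, was measured at 5.18, 7.11 and 4.31 CPM in the controls and at 7.02, 5.53, 6.94 and 10.3 CPM in the knockouts. Control library 2 lay above 3 of the 4 knockout libraries. The log2 fold change was 0.43 (SE 0.25) with an edgeR adjusted p of 0.388. Adam10 and Adam17, whose proteins can release both membrane-bound ligands, were measured at 46.4 ± 0.605 and 30.9 ± 2.34 CPM in the controls and at 56.0 ± 2.91 and 42.7 ± 5.44 CPM in the knockouts. Neither group pair overlapped, a pattern that 17.6% of all genes tested had, 8.86% with the knockouts higher. Neither gene passed the threshold, with edgeR adjusted p-values of 0.143 for Adam10 and 0.0824 for Adam17. Both were at an unadjusted edgeR p under 0.05, against 10.5% of all genes tested that were so and higher. DESeq2 called 1 of the 2, where it called 5.82% of all genes tested.

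**Figure D3:**
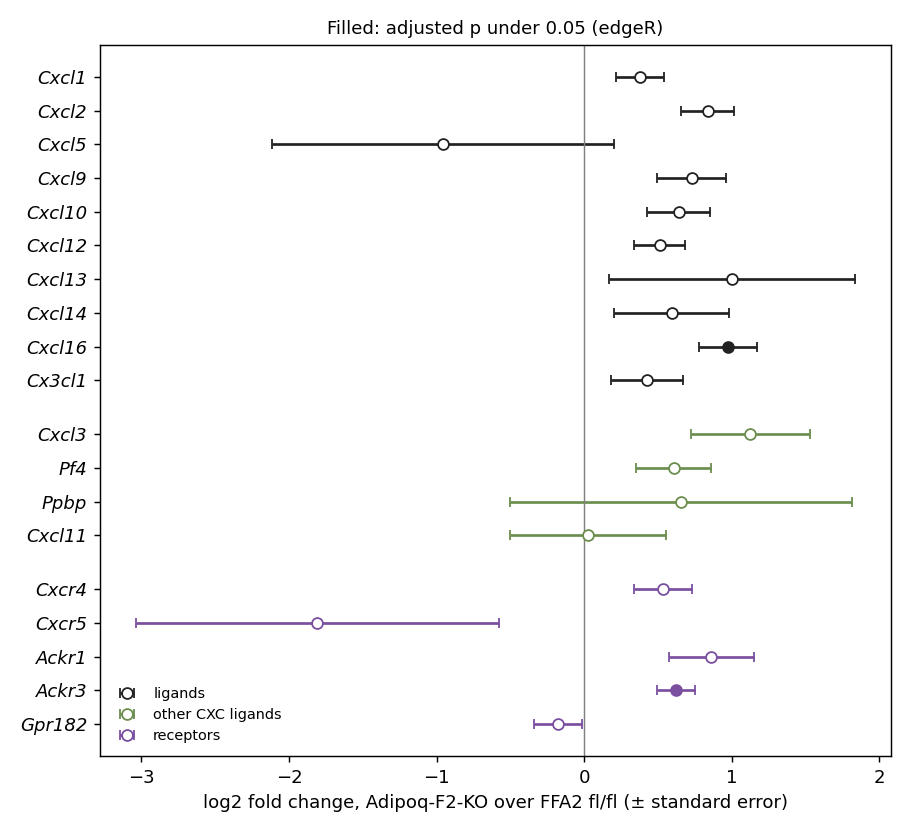
Log2 fold change of Adipoq-F2-KO over FFA2 fl/fl for the 10 ligands, 4 other CXC ligands and 5 receptor genes that passed the filter on low counts, with bars of 1 standard error from edgeR and filled points for an adjusted p under 0.05. Cxcl16 at 0.97 and the receptor gene Ackr3 at 0.62 are the filled points, and Cxcl5 lies below 0 with the widest bar among the 10 ligands.

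By class, the median log2 fold change was 0.38 for the neutrophil-attracting ligands, 0.68 for the interferon-induced, 0.59 for the homeostatic and 0.70 for the membrane-bound ligands. Leaving out 1 library at a time moved these medians between 0.28 and 0.57, between 0.48 and 1.00, between 0.34 and 0.82, and between 0.56 and 0.81, so the classes overlapped in this range. With 2 or 3 ligands in a class these are descriptions of the members and were not tested against each other.

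Control library 2 had the highest control value in 8 of the 10 ligands, and knockout library 1 had the lowest knockout value in 7. Leaving out the highest control raises a fold change by construction. Without control library 2 the log2 fold changes were 0.57 for Cxcl1, 1.13 for Cxcl2, 1.05 for Cxcl9, 0.94 for Cxcl10 and 0.68 for Cxcl12. The part of other cells in the ligand levels of that library was not tested. Without control library 2, edgeR called 1 of the 10 ligands, Cxcl2, and 41 genes in all. Without control library 1 it called none of the ligands, but only 1 gene in all, so that fit could hardly call a ligand. In that fit 4 ligands were at an unadjusted p under 0.05, and the share over all genes was not taken.

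**Figure D4:**
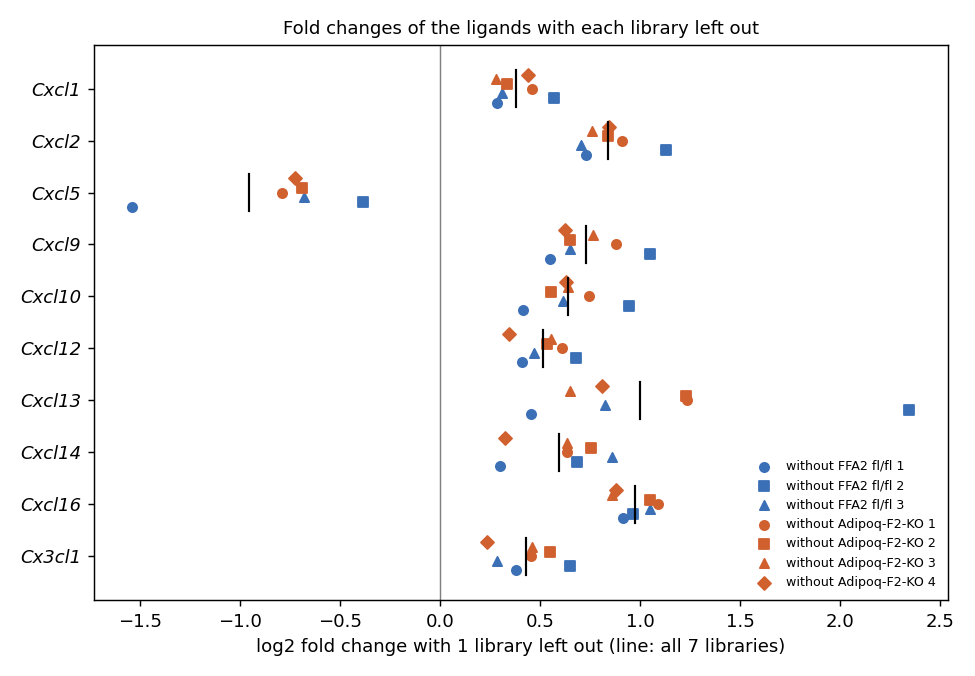
Log2 fold change of each ligand in all 7 libraries and in the fits that left out 1 library at a time, by edgeR. The values lie above 0 for 9 ligands in every fit, and those of Cxcl1, Cxcl2, Cxcl9, Cxcl10 and Cxcl12 are highest without FFA2 fl/fl library 2.

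Of the other CXC ligands, 4 were tested and none was called by edgeR, where 1.02% of all genes tested were called. At an unadjusted edgeR p under 0.05, 2 of the 4 were higher, against 10.5% of all genes tested. DESeq2 called 1 of the 4, Cxcl3, where it called 5.82% of all genes tested. Cxcl3, the CXCR2 ligand closest in sequence to Cxcl2, was measured at 2.78, 9.07 and 3.28 CPM in the controls and at 6.30, 13.6, 9.98 and 14.4 CPM in the knockouts, with a log2 fold change of 1.13 (SE 0.40) and an edgeR adjusted p of 0.181. Pf4, a chemokine of platelets, had a log2 fold change of 0.61 (SE 0.26, adjusted p = 0.249 by edgeR), which lay between 0.38 and 0.79 when 1 library was left out. Ppbp, also of platelets, had 0, 24 and 4 counts in the controls and 26, 2, 10 and 16 in the knockouts, and its difference was not detectable at this depth. Cxcl11, the third CXCR3 ligand, had a log2 fold change of 0.02 (SE 0.53, adjusted p = 0.989 by edgeR). Cxcl15 had 0 counts in all libraries and Cxcl17 had 2 counts in control library 2 alone.

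Receptor transcripts were mostly scarce, and Ackr3 was the receptor gene called by edgeR. Of 10 receptor genes 5 passed the filter on low counts. Of these 5, edgeR called 1, where 1.02% of all genes tested were called. At an unadjusted edgeR p under 0.05, 3 of the 5 were higher, against 10.5% of all genes tested. Ackr3, which encodes an atypical receptor that binds and removes CXCL12 without G protein signalling, was measured at 20.1, 25.7 and 24.1 CPM in the controls and at 42.0, 33.0, 35.1 and 33.3 CPM in the knockouts. The groups did not overlap, and the log2 fold change was 0.62 (SE 0.13) with an edgeR adjusted p of 0.0477 and an exact permutation p of 0.0286. In the 7 fits that left out 1 library its log2 fold change stayed between 0.53 and 0.70. Its edgeR adjusted p was 0.0455 without knockout library 4 and 0.0639 or more in the other 6, up to 0.243 without control library 1. Over all genes tested, these fits called between 1 and 178. Cxcr4, the signalling receptor of CXCL12, had a log2 fold change of 0.54 (SE 0.20, adjusted p = 0.189 by edgeR), Ackr1, the endothelial scavenger of inflammatory chemokines, 0.86 (SE 0.29, adjusted p = 0.159 by edgeR) and Gpr182, an atypical receptor of endothelium, -0.18 (SE 0.16, adjusted p = 0.608 by edgeR). Cxcr5, the CXCL13 receptor of B cells, was at 4.41 CPM in control library 2 and between 0 and 1.30 CPM in the others, so its log2 fold change of -1.81 (SE 1.23, adjusted p = 0.472 by edgeR) rested on that library and was 1.07 without it.

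The receptors of the neutrophil-attracting and interferon-induced ligands and of both membrane-bound ligands were at or near 0. Cxcr2 had 2 counts in control library 2, 12 in knockout library 3 and 0 elsewhere, and Cxcr1 had 2 and 4 counts in knockout libraries 1 and 2 and 0 elsewhere. Cxcr3 had 6 and 12 counts in control libraries 1 and 2 and 2 in knockout library 3. Cxcr6 had 6 counts in knockout library 2 alone, and Cx3cr1 had 18 counts in control library 2, 0 in the other controls and 2 to 14 in the knockouts. These genes were not tested, and their differences were not detectable at this depth.

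Genes of NF-kB and the cytokines that induce chemokines were higher in 20 of the 21 tested, with a median log2 fold change of 0.70. The genes called were 4 by edgeR, 9 by DESeq2 and 5 by limma voom, where 50.4% of all genes tested were higher and 1.02%, 5.82% and 1.22% were called by these tools. The called members were Tnf (1.65, SE 0.22), Il6 (1.47, SE 0.23), Bcl3 (0.87, SE 0.17) and Nfkb2 (0.63, SE 0.11), with edgeR adjusted p-values of 0.0192, 0.0332, 0.0446 and 0.0332. In the 7 fits that left out 1 library, Tnf was called in 5, Il6 in 3, Bcl3 in 2 and Nfkb2 in 2. Without control library 1 their edgeR adjusted p-values were 0.166, 0.196, 0.207 and 0.201. Over all genes tested, these fits called between 1 gene, without control library 1, and 178, so few genes could pass in some of them. Tnf and Il6 encode inflammatory cytokines, and Bcl3 and Nfkb2 encode members of the NF-kB system. Genes of the interferon response were higher in 14 of the 24 tested, with none called by edgeR and a median log2 fold change of 0.08. At an unadjusted edgeR p under 0.05, 4 of the 24 were higher, against 10.5% of all genes tested. DESeq2 called 1 of the 24, where it called 5.82% of all genes tested. Within that list the regulator Irf1, which acts upstream of Cxcl9 and Cxcl10, had a log2 fold change of 0.19. The members of the list ranged from -0.44 to 0.83, and leaving out 1 library moved the median between -0.10 (without knockout library 4) and 0.29.

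The markers of other cells in the adipocyte fraction are counted below against all genes tested, of which 50.4% were higher, 17.9% were at an unadjusted p under 0.05 in either direction (10.5% higher) and 5.82% were called by DESeq2, 1.22% by limma voom and 1.02% by edgeR. Macrophage markers were higher in 13 of the 14 tested, with Cd68 (0.72, SE 0.14, adjusted p = 0.0416 by edgeR) and Lyz2 (0.69, SE 0.12, adjusted p = 0.0383 by edgeR) called, and their summed level was 521 to 680 CPM in the controls and 749 to 950 CPM in the knockouts. Cd74, the most abundant of them, differed by 0.54 on the log2 scale (adjusted p = 0.129 by edgeR). By DESeq2 7 of these markers were called and by limma voom 2. In the 7 fits that left out 1 library, Cd68 was called in 1 and Lyz2 in 3. Their highest edgeR adjusted p-values, 0.227 and 0.201, came without control library 1, where 1 gene was called in all. Over all genes tested, the 7 fits called between 1 and 178. Endothelial markers were higher in 10 of 10 with none called by edgeR, 8 at an unadjusted p under 0.05 and 4 called by DESeq2, at 1077 to 1421 and 1494 to 2356 CPM, and their leading genes Cdh5 and Pecam1 had log2 fold changes of 0.59 and 0.51. Fibroblast and progenitor markers were higher in 8 of 10 with none called by edgeR, 4 at an unadjusted p under 0.05 and 2 called by DESeq2, at 1230 to 1518 and 1556 to 1761 CPM, with 0.41 for Col3a1 and -0.21 for Col1a2. The ranges of these 3 lists did not overlap between genotypes, in the same direction as the ligands, and their part in the ligand differences was not tested.

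Neutrophil markers summed to 10.3 to 11.9 CPM in the controls and 13.8 to 16.4 CPM in the knockouts over the list, of which 4 of 10 were tested. Of those tested, 2 were higher and 2 lower, from -0.69 to 0.79 on the log2 scale, with none called by edgeR and 1 by DESeq2. Their most abundant genes Mmp9 and S100a8 differed by 0.79 and -0.18 on the log2 scale, and Mmp9 had an adjusted p of 0.0647 by edgeR. The defining neutrophil gene Ly6g was at 0 in all 7 libraries. The summed levels of the 4 lists so far lay higher in every knockout library than in any control library, although the tested neutrophil markers were split in direction. Adipocyte markers were lower in 10 of 10 with none called by edgeR, 5 at an unadjusted p under 0.05, 2 called lower by DESeq2 and a median log2 fold change of -0.30, at 42585 to 47802 CPM in the controls and 32771 to 43346 CPM in the knockouts, with -0.32 for Cfd and -0.01 for Fabp4. T and NK cell markers, led by Cd4 and Gzma, summed to 1.60 to 5.34 and 0.790 to 3.37 CPM. B cell markers, led by Ighm and Jchain, summed to 560 to 696 and 330 to 689 CPM, and mesothelial markers, led by Cldn15 and Krt8, to 40.2 to 84.6 and 39.5 to 53.2 CPM. Germ cell and epididymal markers, of which Prm2 and Tnp2 led, summed to at most 7.13 CPM in the controls. In knockout libraries 1 to 4 they summed to 3.21, 139, 28.7 and 6.55 CPM. Their median log2 fold change was 4.23, and 0.47 without knockout library 2. The T and NK cell, B cell, mesothelial and germ cell lists held 3, 6, 10 and 6 tested genes, and edgeR called none of them. At an unadjusted edgeR p under 0.05 were 0, 0, 3 and 3 of these genes. The mesothelial genes among them were 1 higher and 2 lower, and the germ cell genes 3 higher. DESeq2 called 2 germ cell markers, both higher. Genes induced by tissue dissociation, led by Egr1 and Fosb, were higher in 8 of the 15 tested with none called by edgeR or DESeq2, 2 at an unadjusted p under 0.05 and a median log2 fold change of 0.00, and their summed levels overlapped between genotypes.

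The genes whose pattern over the 7 libraries was closest to the leading ligand of each class were found among 13499 genes by the root mean square difference of centred log2 levels. Closest to Cxcl1 were Ptx3 (0.0634), which encodes a secreted pentraxin, Rabgef1 (0.0926) and Gadd45b (0.0952). Closest to Cxcl10 were Birc3 (0.0870) and Rel (0.108), which encode an inhibitor of apoptosis and an NF-kB subunit, and Dock2 (0.118), a gene of haematopoietic cells. Closest to Cxcl12 were Kirrel3 (0.0605), Postn (0.0653), which encodes the matrix protein periostin, and Slfn5 (0.0702). Closest to Cxcl16 were Fbxo30 (0.0910), Runx1 (0.0970), which encodes a transcription factor of blood cells, and Tbc1d8 (0.0986). The 7 libraries share their genotype contrast, so these distances describe likeness only.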

How the data were processed

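Per the labels, paired reads were trimmed with Trimmomatic and aligned with STAR, and the authors deposited 1 table of raw featureCounts counts per gene. The build named in the submitters' processing notes is GRCm38, whose gene coordinates differ from those of the table. The labels give no separate batch or date, and the study text gives another age for its chow cohort than the labels. Even values among low counts (85.5% to 88.8% of counts from 1 to 49) show that both mates were counted. Genes were filtered with filterByExpr, scaled by TMM and tested with the edgeR 4.0.16 quasi-likelihood test (R 4.3.3) over all 7 libraries, with Benjamini-Hochberg adjustment over 17039 genes and no covariates. Exact permutation tests over the 35 splits were two-sided. Symbols were found for 52029 of 57010 identifiers. A single gene without a symbol took 0.619% to 6.76% of counts. No pair of libraries within a group agreed within counting error, and the labels do not say whether each library came from 1 mouse, so p-values measure the spread between these libraries. The script for the tests was checked on simulated data. Alternatives were DESeq2 1.42.0, limma 3.58.1 voom, other scaling, a filter of at least 1 count, leaving out each library and a replicate block. Named genes were the 10 ligands, Ffar2 and Ffar3, called list members, tested receptors, the 2 most abundant markers of each list and the 3 genes closest to the leading ligand of each class. Other named genes (untested receptors, the other CXC ligands, sheddases, Irf1, Ly6g and genes with overlapping exons) were chosen after their values were seen. The members and lists were chosen with earlier results of these data known.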

Additional observations from a re-analysis of the deposited data

Results flagged for a closer look

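Within the 4 Adipoq-F2-KO libraries, a single library stood apart by Dixon's ratio, the gap to the nearest library over the range, in 3 of the 26 genes screened. The ratio was 0.879 for Cxcl5, with knockout library 3 the highest, 0.930 for Cxcr5, again with knockout library 3 the highest, and 0.853 for Gpr182, with knockout library 4 the highest. Chance gives about 1 such library in 20 groups. Cxcl5 and Cxcr5 rest on few counts in these libraries.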

How the results depend on the processing

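No ligand changed direction under any alternative run. The ligands called numbered 1 with edgeR, 4 with DESeq2, 5 with a filter of at least 1 count, 2 with total count scaling without mitochondrial genes and the unnamed gene, 4 with a replicate block, 0 with replicates 1 to 3 and no block (chosen after seeing the data), and 0 to 1 when 1 library was left out. The 2 with total count scaling were Cxcl2 and Cxcl16, where 231 genes were called in all. The 4 with the block were Cxcl2, Cxcl9, Cxcl10 and Cxcl16, where 223 genes were called in all. Over all tested genes the 173 called became 992 (739 higher) with DESeq2 and 1403 (1071 higher) with a filter of at least 1 count, against 136 called higher by edgeR, and 1 to 178 (0 to 151 higher) when 1 library was left out. Same-numbered libraries did not deviate together (r of 0.07, -0.03 and -0.04), which cannot exclude that the numbers pair them. The replicate block over replicates 1 to 3 called 223 genes, against 166 in the same libraries without the block. Single genes followed through the alternatives that changed direction were Cxcl11, at -0.0052 with limma voom, and, with 1 library left out, Cxcl11, from -0.24 (knockout library 2) to 0.35 (control library 2), and Cxcr5, from -2.38 (control library 3) to 1.07 (control library 2). List medians that changed sign were those of the interferon response (0.08, but -0.09 with the replicate block and without control library 3, and -0.10 without knockout library 4), of T and NK cell markers (-0.09, but 0.33 with limma voom and 0.45 and 0.26 without control and knockout libraries 2) and of B cell markers (-0.26, but 0.58 with limma voom and 2.04 without control library 2), and those of mesothelial and dissociation genes crossed 0 from 0.00. The causes were not tested. Cxcl5 was not fitted without knockout library 3. Ligands at a few counts, Cxcl5 and Cxcl13, are limited by depth.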
